A study of Mus musculus with 6 samples.

Results

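The genes described are 10 genes of macroautophagy, taken by symbol and compared between Nop16 siRNA and control siRNA libraries of a mouse macrophage line. They are the cargo receptor gene Sqstm1, the ATG8 genes Gabarap, Gabarapl1, Gabarapl2, Map1lc3a and Map1lc3b, and the core machinery genes Ulk1, Becn1, Wipi1 and Atg5. Each symbol matched 1 Ensembl identifier among the 55401 genes of the count tables. All 10 genes passed the filter on low counts, which left 14269 genes tested.

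The cells are RAW264.7, a macrophage line from ascites of a mouse tumour induced by Abelson leukaemia virus. The Nop16 siRNA group is 3 libraries titled for that siRNA, with the genotype tag Nop16 KD. The control siRNA group is 3 libraries titled as siRNA controls, with the genotype tag WT. The same protocol text stands on all 6 samples and names siRNA to Nop16 at 20 nM with Lipofectamine RNAi Max for 3 days, and the treatment tag is "no" on all 6. The sources used here give neither what the control cells were transfected with nor the siRNA sequence. The labels do not state that replicates were separate cultures. The p-values therefore reflect the spread from library to library, which may be technical only. Nop16 encodes a nucleolar protein that takes part in building the large ribosomal subunit, and the series asks what it does in macrophages.

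In macroautophagy a cup-shaped membrane, the phagophore, grows around cytoplasm or a marked cargo, closes into an autophagosome and fuses with lysosomes. The ULK1 kinase complex starts the process, and a lipid kinase complex with Beclin 1 marks the site with phosphatidylinositol 3-phosphate, which WIPI proteins read. The ATG5 conjugation system then attaches the small ubiquitin-like ATG8 proteins to the membrane lipid phosphatidylethanolamine. Receptors such as p62, the product of Sqstm1, hold ubiquitinated cargo and bind ATG8 proteins. In macrophages the same machinery clears intracellular bacteria and damaged organelles, and part of it sends LC3 to phagosomes.

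The 5 ATG8 genes fall into the GABARAP and LC3 subfamilies. ATG4 proteases cut each newly made ATG8 protein behind a glycine, to which the lipid is joined. The ends of 4 of the coding sequences, without the stop codon, show this shared site and how far the genes differ in their bases. The last glycine codon is in capitals, and sequences are read 5′ to 3′ from the principal transcripts of GENCODE M21.
Gabarap (chromosome 11): gatgaaagcgtctatGGTctg
Gabarapl1 (chromosome 6): gatgaaagtgtctatGGAaaa
Gabarapl2 (chromosome 8): ggagagaacacttttGGCttc
Map1lc3a (chromosome 2): tcccaagaaaccttcGGCttc
The glycine codon is number 116 in the GABARAP genes and 120 in Map1lc3a, and a single codon follows it in each of these 4 genes. The end of Map1lc3b was not read here. Its coding sequence is longer, with 125 codons against 121 in Map1lc3a, so the single codon is stated only for the 4 genes shown. Coding sequences were most alike between Gabarap and Gabarapl1 (74.6% identity) and between Map1lc3a and Map1lc3b (74.1%). Between the subfamilies identity was 48.8 to 52.9%. The longest run of bases shared by any pair of the 5 transcripts was 17, between Gabarap and Gabarapl1.

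Nop16 had 3.94, 4.14 and 4.56 CPM (counts scaled to library size with TMM factors) in the Nop16 siRNA libraries and 17.7, 18.8 and 20.2 CPM in the control libraries. Nop16 changed by -2.16 on the log2 scale (SE 0.12; adjusted p in edgeR 2.94e-23), so the targeted gene went with the labels. Total counts were 15601477 to 18635089 in Nop16 siRNA libraries and 19778237 to 23061922 in control libraries, so depth moved with the groups. Of the macrophage markers, 8 of 8 were tested, with 5 higher and 2 lower, and summed to 7291 to 7666 CPM after Nop16 siRNA and 4691 to 4959 CPM in controls. Most of that difference lay in Lyz2, the lysozyme gene, which averaged 2934 CPM after Nop16 siRNA and 1144 CPM in controls, while Fcgr1 (0.779-fold) and Ptprc (0.915-fold) were lower. Adgre1, which encodes F4/80, averaged only 7.86 CPM in Nop16 siRNA libraries and 7.81 CPM in controls. Of 24 markers of other cell types, 9 were at 0 in every library, among them Cd3e and Dcn, and 2 were tested, S100a8 and Pdgfra, at 0.884 and 1.25 CPM in Nop16 siRNA libraries and 1.36 and 1.28 CPM in controls.

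Transcripts of 6 of the 10 autophagy genes were higher after Nop16 siRNA: Gabarapl1, Sqstm1, Gabarapl2, Map1lc3b, Map1lc3a and Becn1. Atg5 was lower. Gabarap, Wipi1 and Ulk1 did not pass an edgeR adjusted p of 0.05. Over all tested genes 45.4% were called, 23% as higher and 22.4% as lower. All tested genes include many less abundant than these 10, and the shares were not matched for abundance. The median log2 fold change of the 10 genes was 0.24, and over all tested genes it was -0.0002. The 10 genes were chosen with earlier results of these data known, so their counts and median are a description. The libraries of the groups did not overlap for 7 of the 10 genes (70%), the same 7 that passed, against 52.5% of all tested genes.

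**Figure D1:**
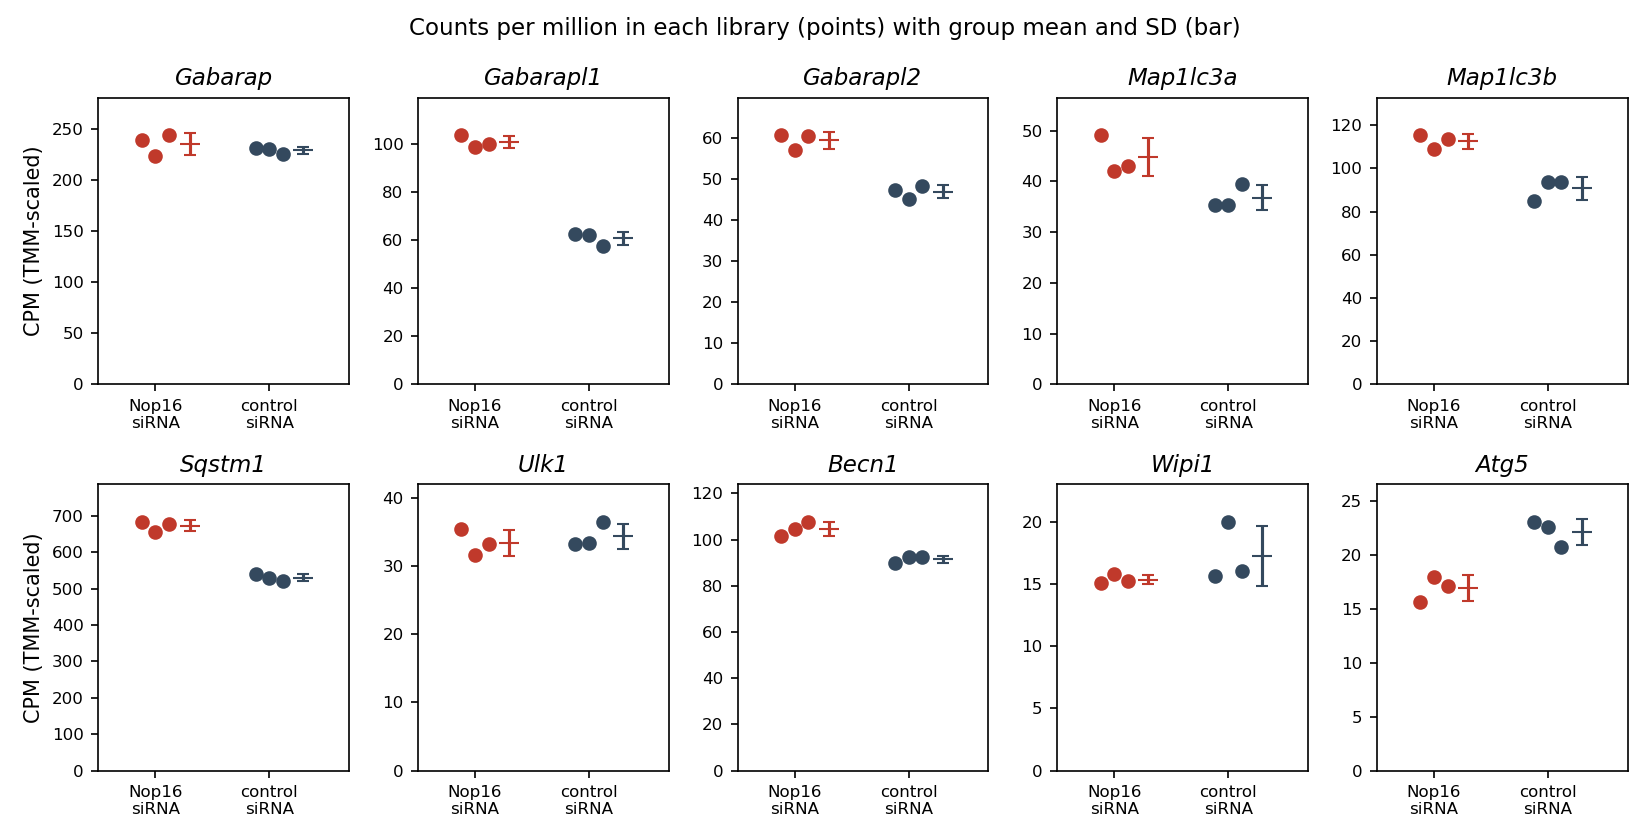
Each panel plots CPM (linear axis from 0) of 1 gene in the 3 Nop16 siRNA libraries (left, red) and the 3 control siRNA libraries (right, blue), with the group mean and SD beside the points. Points of the groups do not overlap for Gabarapl1, Gabarapl2, Map1lc3a, Map1lc3b, Sqstm1, Becn1 and Atg5, and they overlap for Gabarap, Ulk1 and Wipi1.

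Among the ATG8 genes the largest rise was that of Gabarapl1 (ENSMUSG00000030161, chr6:129533160-129542346, plus strand of GRCm38), whose product joins autophagosomes and also binds the GABA-A receptor. It had 103.5, 98.6 and 99.9 CPM after Nop16 siRNA, against 62.6, 61.9 and 57.5 CPM in controls. Every Nop16 siRNA library lay above every control library, with a gap far wider than the spread inside either group. Gabarapl1 changed by 0.73 on the log2 scale (95% interval 0.63 to 0.82, edgeR adjusted p = 1.47e-20), a 1.66-fold rise. Of all tested genes, 7.82% had a larger absolute log2 fold change. In bulk RNA, a change in the share of cells that express a gene cannot be told apart from a change in RNA per cell.

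Gabarap (ENSMUSG00000018567, chr11:69991143-69994951), the founding member of that subfamily and its most abundant transcript here, had 239.3, 222.8 and 243.4 CPM after Nop16 siRNA and 231.2, 230.4 and 224.7 CPM in controls. The libraries of the groups overlapped. Its log2 difference was 0.04 (95% interval -0.03 to 0.11, edgeR adjusted p = 0.365), so the interval ends at 1.08-fold. Without Nop16 siRNA replicate 2 the difference was 0.08 (edgeR adjusted p = 0.0757), and without Nop16 siRNA replicate 3 it was 0.01 (0.847). The quotient of Gabarapl1 to Gabarap counts inside a library, which no scaling between libraries can alter, was 0.433, 0.442 and 0.411 after Nop16 siRNA and 0.271, 0.269 and 0.256 in controls.

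Gabarapl2 (ENSMUSG00000031950, chr8:111940703-111953612), which encodes GATE-16, a protein also known from Golgi transport, was 1.27-fold higher. Its libraries stood at 60.7, 57.2 and 60.7 CPM after Nop16 siRNA and 47.3, 45.3 and 48.3 CPM in controls (log2 fold change 0.34, SE 0.05, edgeR adjusted p = 3.44e-07). The quotient of Gabarapl1 to Gabarapl2 counts was 1.65 to 1.72 after Nop16 siRNA and 1.19 to 1.37 in controls, higher in each Nop16 siRNA library than in any control.

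Both LC3 genes were higher after Nop16 siRNA. Map1lc3b (ENSMUSG00000031812, chr8:121590361-121598760), whose product LC3B is the usual marker of autophagosomes, had 115.3, 108.8 and 113.6 CPM after Nop16 siRNA and 84.7, 93.9 and 93.9 CPM in controls. Control replicate 1 was the lowest of the 6 libraries. The change was 0.31 on the log2 scale (SE 0.04; adjusted p in edgeR 1.74e-08), and without control replicate 1 it was 0.26. Map1lc3a (ENSMUSG00000027602, chr2:155276297-155278073), which encodes LC3A, had 49.1, 42.2 and 43.1 CPM after Nop16 siRNA and 35.4, 35.4 and 39.6 CPM in controls. Nop16 siRNA replicate 1 stood above the other 5 libraries. Map1lc3a changed by 0.28 on the log2 scale (SE 0.07; adjusted p in edgeR 0.00024), and it was 0.21 without that replicate (edgeR adjusted p = 0.0112).

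The receptor gene Sqstm1 (ENSMUSG00000015837, chr11:50199366-50210827, minus strand), whose product p62 is itself degraded by autophagy, was the most abundant of the 10. It had 684.5, 656.6 and 677.8 CPM after Nop16 siRNA, against 541.6, 528.3 and 522.3 CPM in controls. Every Nop16 siRNA library lay above every control library. Its log2 difference was 0.34 (95% interval 0.29 to 0.40, edgeR adjusted p = 6.92e-16), a 1.27-fold rise, the same size as that of Gabarapl2.

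The core machinery genes did not move together. Becn1 (ENSMUSG00000035086, chr11:101285952-101302286, minus strand), which encodes the Beclin 1 scaffold of the lipid kinase complex, had 101.7, 104.6 and 107.8 CPM after Nop16 siRNA and 89.8, 92.6 and 92.2 CPM in controls. The groups were close but did not overlap, and the rise of 1.14-fold (log2 fold change 0.19, SE 0.04, edgeR adjusted p = 0.000102) was the smallest of the 6. Of all tested genes, 52.3% had a larger absolute log2 fold change than Becn1.

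Atg5 (ENSMUSG00000038160, chr10:44268358-44364291), which with ATG12 forms part of the ligase-like complex for ATG8 lipidation, went the other way. Its libraries stood at 15.6, 18.0 and 17.1 CPM after Nop16 siRNA and 23.1, 22.5 and 20.7 CPM in controls. All Nop16 siRNA libraries lay below all controls. Atg5 fell by 0.39 on the log2 scale (SE 0.09, edgeR adjusted p = 0.000148), to 76.5% of its control level (95% interval 0.679 to 0.862 as a fold).

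Ulk1 (ENSMUSG00000029512, chr5:110784488-110810097, minus strand), the kinase that starts autophagy, had 35.5, 31.7 and 33.2 CPM after Nop16 siRNA and 33.3, 33.5 and 36.6 CPM in controls. The groups overlapped, and Ulk1 differed by -0.04 on the log2 scale (95% interval -0.18 to 0.10, edgeR adjusted p = 0.66). Wipi1 (ENSMUSG00000041895, chr11:109573331-109611967, minus strand), which encodes a reader of phosphatidylinositol 3-phosphate, had 15.0, 15.8 and 15.2 CPM after Nop16 siRNA and 15.6, 20.0 and 16.03 CPM in controls. Control replicate 2 stood alone above the other 5 libraries. The log2 fold change of Wipi1 was -0.17 (95% interval -0.36 to 0.02, edgeR adjusted p = 0.146), and without control replicate 2 it was -0.04.

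**Figure D2:**
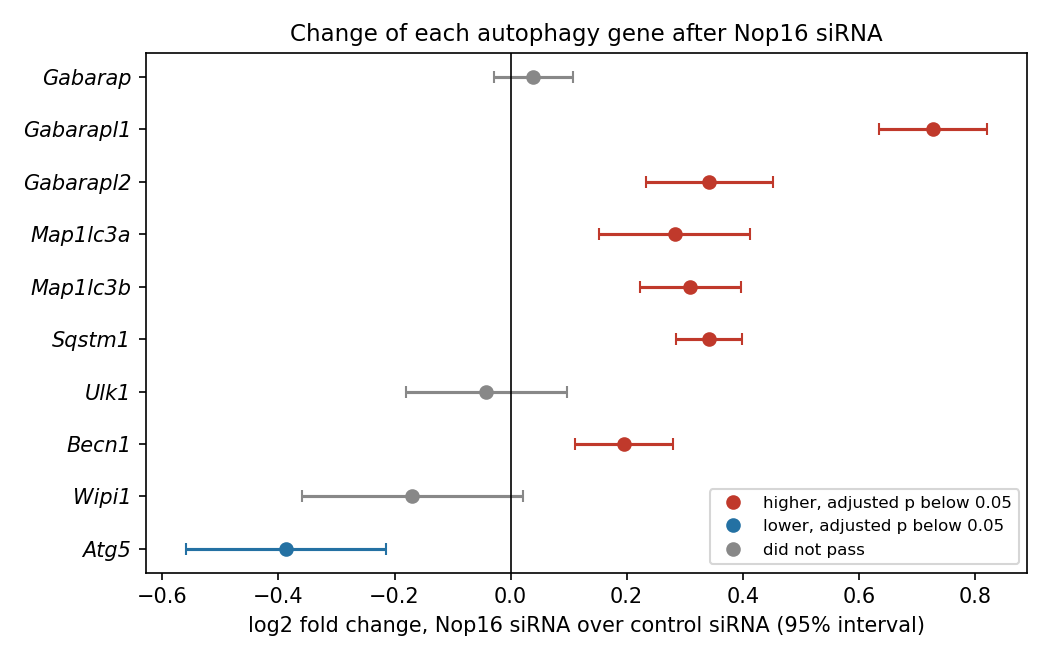
Points give the log2 fold change of each of the 10 genes, Nop16 siRNA over control siRNA, and bars the 95% interval from the edgeR fit, coloured by call. Gabarapl1 stands apart at 0.73 with an interval that starts at 0.63, the other 5 rises lie between 0.19 and 0.34, and Atg5 is the only gene whose interval lies wholly below 0.

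These calls came from edgeR's quasi-likelihood test with Benjamini-Hochberg adjustment over all tested genes. Against a minimum fold of 1.2, Gabarapl1 (edgeR adjusted p = 9.71e-14) and Sqstm1 (0.00631) passed and the other 5 did not. All 7 calls were kept when each library was left out in turn and with counts thinned to equal depth.

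Set on a scale per length (TPM, counts divided by the gene length in the count tables and scaled to a fixed total per library), Sqstm1 and Gabarap were the most abundant of the 10. Sqstm1 averaged 418.8 ± 6.26 TPM after Nop16 siRNA and 320.5 ± 4.51 TPM in controls (SD, n = 3 each). Gabarap averaged 266.3 ± 10.2 TPM after Nop16 siRNA and 251.5 ± 3.82 TPM in controls. Gabarapl1 averaged 104.4 ± 2.33 TPM after Nop16 siRNA and 61.1 ± 2.71 TPM in controls. In the Nop16 siRNA libraries Gabarapl1 was above Map1lc3a in every library (lowest 103.0 against highest 86.6 TPM), whereas in controls their levels overlapped, with Map1lc3a at 63.1 ± 4.27 TPM.

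Gabarapl2 followed at 53.5 ± 1.41 TPM after Nop16 siRNA and 40.9 ± 1.21 TPM in controls. Map1lc3b averaged 31.3 TPM after Nop16 siRNA and 24.5 TPM in controls, and Becn1 30.9 TPM after Nop16 siRNA and 26.3 TPM in controls. These levels overlapped each other after Nop16 siRNA. Atg5, Ulk1 and Wipi1 were lowest in both groups, at 15.0, 10.8 and 7.27 TPM after Nop16 siRNA and 19.1, 10.8 and 7.92 TPM in controls. The places of Map1lc3b and Wipi1 in this order rest on the length used. Its gene model has 7517 bases, including an annotated retained intron, and its principal transcript has 2532 bases. With principal transcript lengths, chosen after seeing the data, Map1lc3b stood at 92.8 TPM after Nop16 siRNA and 72.7 TPM in controls, above Map1lc3a at 84.0 TPM after Nop16 siRNA and 67.0 TPM in controls. With those lengths Wipi1 stood at 15.6 TPM after Nop16 siRNA and 17.03 TPM in controls, above Ulk1 at 13.4 TPM in both groups, while Atg5 stayed at 15.0 TPM after Nop16 siRNA and 19.1 TPM in controls.

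The ATG8 transcripts summed to 550.5, 515.5 and 537.9 TPM after Nop16 siRNA and to 438.9, 443.8 and 440.9 TPM in controls, a ratio of group means of 1.21. Within that sum Gabarap made up 49.8% ± 0.963 after Nop16 siRNA and 57.0% ± 0.782 in controls (SD, n = 3 each). Gabarapl1 made up 19.5% ± 0.447 after Nop16 siRNA and 13.9% ± 0.608 in controls. Gabarap's share was lower and Gabarapl1's higher in each Nop16 siRNA library than in any control. Shares of a sum move against each other. The level of Gabarap itself was not lower, at 266.3 TPM after Nop16 siRNA and 251.5 TPM in controls. The 3 GABARAP genes together held 79.3% ± 0.833 after Nop16 siRNA and 80.1% ± 1.18 in controls, a difference inside the spread between libraries. The sizes of these shares rest on the gene length used. With principal transcript lengths, Gabarapl1 made up 15.8% after Nop16 siRNA and 11.1% in controls. The 3 GABARAP genes then held 75.8% after Nop16 siRNA and 77% in controls.

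**Figure D3:**
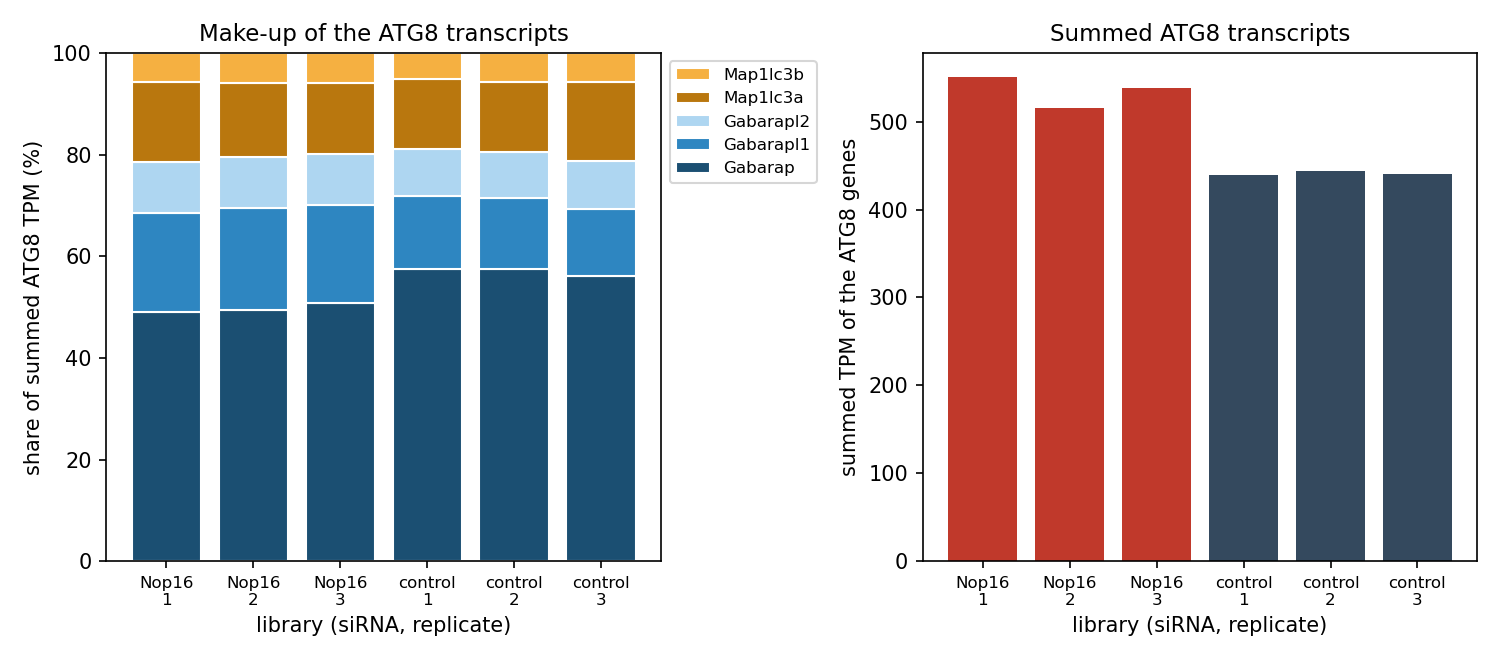
The left panel stacks the share (%) of each ATG8 gene in the summed ATG8 TPM of each library, and the right panel gives the sum in TPM, with Nop16 siRNA libraries left of controls. Gabarap takes 49.1 to 50.9% in Nop16 siRNA libraries and 56.1 to 57.5% in controls, while Gabarapl1 takes 19.1 to 20.0% in Nop16 siRNA libraries and 13.2 to 14.3% in controls.

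Processed pseudogenes with 85% or more identity over at least 300 bases were found for Gabarapl2 and Map1lc3b, and multi-mapped fragments were counted for every place they fit. Gm6055, 99.7% identical to Map1lc3b over 378 bases, had 193, 218 and 220 counts after Nop16 siRNA and 198, 221 and 207 counts in controls. Its log2 fold change was 0.35 (edgeR adjusted p = 0.00701), close to the 0.31 of Map1lc3b. Gm3724, 99.4% identical to Gabarapl2 over 349 bases, had 42 to 54 counts after Nop16 siRNA and 38 to 61 in controls. With pseudogene counts taken off, the log2 fold change was 0.30 for Map1lc3b (edgeR adjusted p = 8.47e-08) and 0.35 for Gabarapl2 (3.72e-07).

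No gene model on the same strand overlapped any of the 10 genes. On the opposite strand Mrnip covers 17.3% of the Sqstm1 model, with 73 to 104 counts after Nop16 siRNA and 122 to 160 in controls. Zcchc14 shares 58 bases with the Map1lc3b model and had 622 to 755 counts after Nop16 siRNA and 872 to 987 in controls. Cntd1 covers 43.9% of the Becn1 model, with 16 to 36 counts after Nop16 siRNA and 33 to 63 in controls. The gene 1700101I11Rik covers 28.3% of the Gabarapl1 model, with 6 to 10 counts after Nop16 siRNA and 2 to 7 in controls. Counting used strand, per the file headers.

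The rest of the pathway was described through 8 lists with 78 entries, of which 77 were matched (Map1lc3c was not) and all 77 were tested. Of these, 37 were higher (48.1%) and 7 lower (9.09%), and their median log2 fold change was 0.12. This compares with 23% and 22.4% of all tested genes, not matched for abundance. The lists were chosen with results of these data known, so the counts are a description.

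The other cargo receptors had 9 higher, 3 lower and 8 not passed of 20. Nbr1, a receptor related in domain structure to p62, rose most at 1.45-fold, to 177 ± 3.52 CPM after Nop16 siRNA, against 122 ± 3.07 CPM in controls (edgeR adjusted p = 1.78e-19). Retreg1 (1.30-fold) and Tex264 (1.29-fold), both receptors for the endoplasmic reticulum, and Tollip (1.25-fold), an adaptor with a ubiquitin-binding domain, were also higher. Other endoplasmic reticulum receptor genes of the list did not all rise. Sec62 was 1.065-fold higher, Ccpg1 did not pass and Rtn3 was lower (0.922-fold). Phb2 (0.921-fold) and Bcl2l13 (0.901-fold) were also lower. The optineurin gene Optn, at 16.1 CPM after Nop16 siRNA and 15.6 CPM in controls, did not pass.

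Around Ulk1, the regulatory subunit gene Atg13 rose 1.61-fold, to 265 ± 3.81 CPM after Nop16 siRNA, against 165 ± 2.26 CPM in controls (log2 fold change 0.68, edgeR adjusted p = 3.56e-26). This change was close in size to that of Gabarapl1. Atg101 (log2 fold change 0.18, edgeR adjusted p = 0.0146) lost its call without Nop16 siRNA replicate 1 (0.0766) or control replicate 3 (0.0586). The paralogue Ulk2 (-0.15, 0.0228) lost it without Nop16 siRNA replicate 1 (0.0824) or 2 (0.0675) and without control replicate 2 (0.07) or 3 (0.118), as well as in DESeq2 (0.0789).

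Around Becn1, the lipid kinase complex list had 2 higher, 1 lower and 4 not passed of 7, and its median was -0.0016. The catalytic subunit gene Pik3c3 stood at 36.6 CPM after Nop16 siRNA and 36.2 CPM in controls. Uvrag (log2 fold change -0.17, edgeR adjusted p = 0.0109) lost its call without Nop16 siRNA replicate 1 (0.0686). Pik3r4, which encodes the regulatory subunit, was 1.12-fold higher (edgeR adjusted p = 0.0228) and lost its call without Nop16 siRNA replicate 2 (0.189) or control replicate 3 (0.113). Nrbf2, a gene for a subunit that binds the complex, was 1.18-fold higher (edgeR adjusted p = 0.0336) and lost it without Nop16 siRNA replicate 3 (0.203) or control replicate 1 (0.065) or 2 (0.121). Pik3r4 also lost its call in DESeq2 (0.0782) and with scaling by library size only (0.0512). Nrbf2 did so in DESeq2 (0.115), with scaling by library size only (0.0565) and with no filter (0.0719).

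Genes of phagophore expansion had 6 higher, none lower and 3 not passed of 9, with a median of 0.27. Tmem41b, a lipid scramblase gene, rose 1.39-fold and Wipi2, the relative of Wipi1 that recruits ATG16L1, 1.27-fold. Atg9b, 1.24-fold higher (edgeR adjusted p = 0.0153), lost its call under 4 of the 17 other settings. Atg2a, which encodes a lipid transfer protein, rose 1.22-fold. Wipi2 had 65.9 ± 4.07 CPM after Nop16 siRNA and 51.8 ± 2.47 CPM in controls (edgeR adjusted p = 1.83e-07), while Wipi1 did not pass. The difference between the changes of these paralogues was not tested.

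The conjugation genes beside Atg5 were split. Atg16l1 (1.33-fold, edgeR adjusted p = 2.06e-10) and Atg12 (1.28-fold, edgeR adjusted p = 4.92e-05), which encode the partners of ATG5 in its complex, were higher. Atg3, the E2-like enzyme that hands ATG8 to the lipid, fell to 17.4 ± 0.669 CPM after Nop16 siRNA, against 24.4 ± 2.12 CPM in controls (log2 fold change -0.48, edgeR adjusted p = 2.78e-06). Atg4a, 1.24-fold higher (edgeR adjusted p = 0.00906), lost its call under 5 of the 17 other settings. In all, 5 of the 10 matched genes were higher, 1 lower and 4 not passed.

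For autophagosome fusion 10 of 14 genes were higher and 1 was lower. Tecpr1 rose 1.36-fold, the SNARE genes Ykt6 and Vamp8 1.30-fold and 1.25-fold, and the tethering subunit gene Vps11 1.25-fold. The 1 lower gene was Vps16, also a tethering subunit gene (0.874-fold, edgeR adjusted p = 0.000591). Of 7 transcription factor genes linked to autophagy, Nfe2l2 (1.33-fold) and Mitf (1.29-fold) were higher, and Tfeb, Tfe3, Foxo1, Foxo3 and Zkscan3 did not pass. Of 6 kinase and ligase genes of selective autophagy, Pink1 (1.17-fold) was higher, and Tbk1, whose product phosphorylates p62, stood at 121 CPM after Nop16 siRNA and 125 CPM in controls.

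**Figure D4:**
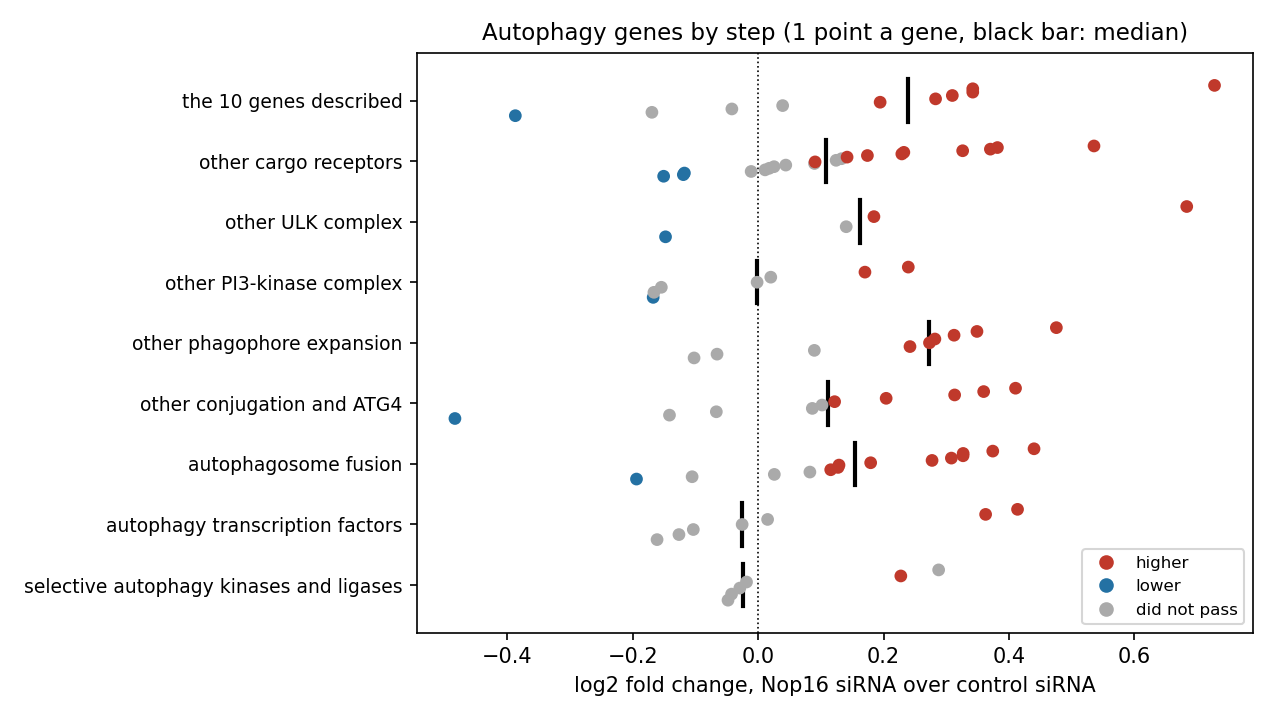
Each point is 1 gene at its log2 fold change, Nop16 siRNA over control siRNA, with 1 row for the 10 genes described and 1 for each list of other autophagy genes, coloured by call, and a black bar at the row's median. Genes called higher outnumber those called lower in every row, and the medians run from -0.03 for the transcription factors to 0.27 for phagophore expansion.

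RefSeq promoter windows (GRCm38.p6, 250 bases before to 50 after the start) were given for 8 of the 10 genes. They were read because 6 genes rose together. Becn1 and Map1lc3a, both among those 6, had no window, so the motif counts do not cover them. The windows of Gabarap (45.7% G or C) and Gabarapl1 (46.3%) were below the median of all 32851 windows (52.7%). The other 6 ranged from 59.3 to 69%. The Gabarap gene model starts at chr11:69991143, inside its window (69991120-69991419). The Wipi1 model, on the minus strand, reaches chr11:109611967, beyond its window (109611340-109611639). Most of the Gabarap window and all of the Wipi1 window thus lie within the gene models. The letters searched on both strands were CACGTG (the E-box read by MITF and TFE proteins) and TCACGTGA (its extended form, which holds the first). Also searched were TGACNNNGC (the antioxidant response core read by NRF2) and GTAAACA (a form of the forkhead core). Other forms of these motifs were not searched. CACGTG was in 1 of the 8 windows, that of Atg5, 14 bases before the start, against 7.15% of all windows. TGACNNNGC was in 1, that of Map1lc3b, against 12.4% of all windows. TCACGTGA (0.974% of all windows) and GTAAACA (3.65%) were in none of the 8. The 250 bases before the start are shown for the gene with the largest rise and for the gene that fell, with CACGTG in capitals.
Gabarapl1, chr6:129532942-129533191, plus strand: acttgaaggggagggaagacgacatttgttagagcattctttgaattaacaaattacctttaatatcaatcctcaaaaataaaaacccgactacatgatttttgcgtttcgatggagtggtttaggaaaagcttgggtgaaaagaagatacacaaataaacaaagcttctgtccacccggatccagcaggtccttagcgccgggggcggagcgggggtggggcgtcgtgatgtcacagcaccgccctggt
Atg5, chr10:44268089-44268338, plus strand: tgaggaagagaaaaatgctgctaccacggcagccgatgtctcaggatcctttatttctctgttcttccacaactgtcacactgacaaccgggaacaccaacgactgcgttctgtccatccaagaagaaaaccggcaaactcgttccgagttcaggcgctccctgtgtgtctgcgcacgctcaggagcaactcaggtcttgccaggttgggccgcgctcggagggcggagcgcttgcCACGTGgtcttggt

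The pattern of Gabarapl1 over the 6 libraries was most like that of Glb1, the lysosomal beta-galactosidase gene, with a Pearson r of 0.9998 on log2(CPM + 0.5). Mfsd13a, the short model Gm23419, Taf11 and Ssu72 followed. With 6 libraries in 2 groups an r of 0.99 is easily reached: 193 of 10698 genes of at least 5 CPM had that or more. How easily 0.9998 is reached was not tested.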

How the data were processed

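The authors deposited raw counts of fragments per gene for 6 libraries of poly(A)-selected RNA, made with a directional kit. Per the file headers, featureCounts 2.0.1 counted read pairs against GRCm38 gene models of Ensembl release 101, with strand setting 2, a minimum overlap of 10 bases, and multi-mapped and multi-overlapping fragments counted. HISAT2 2.2.1 and Trim Galore are named in the submitters' processing notes. Symbols were matched for 55141 of 55401 identifiers. Across libraries, 3 counts equal 0.13 to 0.192 CPM; with no molecular identifiers this floor covers counting error only.

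Counts were tested with edgeR 4.0.16 (R 4.3.3; quasi-likelihood, robust, TMM, filterByExpr) at a Benjamini-Hochberg adjusted p of 0.05. Log2 fold changes put Nop16 siRNA over control siRNA, with SE from the fold change and the root of F. The test was also run on simulated counts that gave all genes a common dispersion. The fit of the data lets dispersion differ between genes, so no error rate is drawn from that run. Results were recomputed with DESeq2 1.42.0, voom in limma 3.58.1, other scalings and filters, robust estimation off, a replicate block, thinning, a minimum fold of 1.2, and leaving out each library. Related models were found with BLAST 2.17.0 and overlaps with bedtools 2.31.1. The 10 genes and all lists were chosen with earlier results of these data known. Genes named from the other lists are up to 4 changed members with the largest change, or the most abundant members where fewer than 2 changed. Some of these are left unnamed, and Optn, Pik3c3 and the factors that did not pass were named after their values were seen. So were Sec62, Ccpg1, Rtn3, Phb2, Bcl2l13 and Vps16. Replicates of 1 group differed by more than sampling noise in every pair (chi-square over its degrees of freedom 2.46 to 3.005).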

Additional observations from a re-analysis of the deposited data

How the results depend on the processing

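The counts of 6 higher and 1 lower among the 10 genes were the same under 16 of the 17 other settings and with pseudogene counts taken off. The exception was the test against a minimum fold of 1.2, which left 2 higher and 0 lower, 9 higher and 1 lower among the other autophagy genes, and 1108 higher and 1253 lower among all genes. Without that test, the other autophagy genes ranged from 26 to 38 higher and 5 to 8 lower, and leaving out 1 library gave 29 to 34 and 5 to 7. Over all genes leaving out 1 library gave 2918 to 3039 higher and 2899 to 3010 lower. Leaving out 1 library moved the log2 fold change of Ulk1 between -0.083 and 0.0018. Its sign turned without control siRNA replicate 3 (edgeR adjusted p = 0.987), the cause was not tested, and Ulk1 was not called under any of the 17 settings. With a replicate block the counts were 6 and 1 for the 10 genes and 38 and 8 for the other autophagy genes. Same-numbered libraries did not deviate together (r from -0.0658 to 0.0172), and pairs with unlike numbers ranged from -0.0881 to 0.114. The labels do not say whether samples were paired. With 3 libraries in each group these values cannot settle it. The ratio of summed ATG8 levels was 1.17 to 1.23 over its alternatives. The widest intervals among the 10 genes were those of Wipi1 and Atg5, the least abundant by CPM, and the parts of depth and replicate spread in them were not tested. The lengths of principal transcripts and the removal of pseudogene counts were chosen after seeing the data.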
